A study of Mus musculus with 14 samples.

Results

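Synaptic vesicle and release machinery is described here through 30 mouse genes of transmitter release, taken by symbol from the 43346 genes of the deposited count table. The rule selects by symbol and uses no measured value, but the members were chosen with earlier results of these data known. All 30 genes were in the table, and 29 passed the filter on low counts, the exception being Slc17a6. The libraries came from the hippocampus of wild-type C57BL/6 mice at day 14, and each was made from about 800 to 1000 live GFP-positive cells that the submitters describe as adult-born granule cells, the neurons that the dentate gyrus goes on adding in adult life. The polyadenylated RNA of the lysed cells was turned into libraries with SMART-Seq v4, which makes full-length cDNA from very small inputs. The DREADD Pilo group, with seizures and silencing, had 3 libraries. The CAG-GFP Pilo group, with seizures, had 4 libraries. The DREADD Sham group, without seizures, had 4 libraries, and the CAG-GFP Sham group, without seizures, had 3. A DREADD is a designer receptor that answers to the drug CNO, which all 4 groups received, so no group shows the receptor or the GFP vector without CNO. Pilo stands for pilocarpine, a muscarinic agonist that starts status epilepticus. It was given after scopolamine methyl nitrate and terbutaline, and diazepam ended the seizures. The labels name the CAG promoter for the GFP vector and give none for the DREADD vector. Whether each library had its own animal is not stated, so a p-value here reflects the spread among libraries alone, which may be technical.

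Release of glutamate from the mossy fibre terminal of a granule cell depends on vesicles that are loaded by a transporter, held in a pool, brought to the active zone and fused with the membrane when calcium enters. A SNARE bundle of vesicle and plasma membrane proteins drives the fusion, synaptotagmin senses the calcium, complexin holds and then aids the bundle, and Nsf with a SNAP protein takes it apart for another round. Young granule cells build this machinery as their axons reach the CA3 field, and synapsins, Rab3 proteins and synaptophysin are long-standing markers of that process.

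Many neuronal genes carry a binding site for the repressor REST near their start, and promoters from RefSeq on GRCm38.p6, from 250 bases before to 50 after the start, were found for 25 of the 30 genes. The 4 shown belong to members that recur in the comparisons or carry a searched motif. They are Syn1 at chrX:20920869-20921168 on the minus strand, Unc13a at chr8:71671708-71672007 on the minus strand, Rab3a at chr8:70754453-70754752 on the plus strand and Slc17a7 at chr7:45163671-45163970 on the plus strand. Capitals mark the searched motifs on either strand, which are the left part of the REST element (TTCAGCACC), the full cAMP response element (TGACGTCA) and the GC box (GGGCGG).
Syn1: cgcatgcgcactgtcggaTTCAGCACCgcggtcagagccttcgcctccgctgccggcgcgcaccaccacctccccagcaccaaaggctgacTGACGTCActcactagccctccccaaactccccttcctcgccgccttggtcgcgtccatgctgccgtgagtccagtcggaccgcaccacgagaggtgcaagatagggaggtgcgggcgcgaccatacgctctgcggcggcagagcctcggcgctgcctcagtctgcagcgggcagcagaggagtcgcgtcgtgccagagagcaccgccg
Unc13a: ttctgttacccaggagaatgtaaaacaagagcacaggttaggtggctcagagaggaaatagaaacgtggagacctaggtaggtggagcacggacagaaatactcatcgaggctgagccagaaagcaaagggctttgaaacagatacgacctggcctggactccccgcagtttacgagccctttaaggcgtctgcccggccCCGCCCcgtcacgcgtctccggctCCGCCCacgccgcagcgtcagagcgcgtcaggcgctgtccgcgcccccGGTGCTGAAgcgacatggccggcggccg
Rab3a: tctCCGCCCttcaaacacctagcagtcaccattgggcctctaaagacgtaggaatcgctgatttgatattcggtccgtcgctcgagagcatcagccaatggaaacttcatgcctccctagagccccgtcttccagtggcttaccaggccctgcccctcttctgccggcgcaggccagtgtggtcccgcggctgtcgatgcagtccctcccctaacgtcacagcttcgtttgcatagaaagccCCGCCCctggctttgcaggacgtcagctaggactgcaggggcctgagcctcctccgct
Slc17a7: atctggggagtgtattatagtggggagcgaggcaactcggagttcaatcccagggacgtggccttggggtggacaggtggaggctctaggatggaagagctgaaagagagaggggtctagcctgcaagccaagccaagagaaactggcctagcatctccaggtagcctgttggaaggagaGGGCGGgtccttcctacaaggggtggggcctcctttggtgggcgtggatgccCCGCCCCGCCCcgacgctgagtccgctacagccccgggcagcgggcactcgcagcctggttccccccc
The REST element part began 232 bases before the start of Syn1 and, on the opposite strand, within the bases after the start of Unc13a. Of the 32 promoters of these genes 2 held it (6.25%), against 0.371% of all 32851 promoters. The cAMP response element was found in Syn1 only, which is 3.12% of the 32 promoters against 1.79% of all. A GC box stood in 62.5% of the promoters of the release genes and in 35.7% of all promoters, and the median GC content was 59.5% against 52.7%. These matches describe letters in a window and show no binding. On GRCm38 (GENCODE M21) the Rab3a gene spans 70754679 to 70758677 of chromosome 8, Slc17a7 spans 45163949 to 45176142 of chromosome 7 and Syn1 spans 20860511 to 20921004 of chromosome X. Vamp2 lies at 69088490 to 69092384 of chromosome 11, Snap25 at 136713453 to 136782428 of chromosome 2 and Syp at 7638471 to 7653256 of chromosome X.

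Total counts per library lay between 10613291 and 38614639. Levels are normalised read counts scaled to the library total with TMM factors (CPM), divided by exon length in kb where genes are set side by side, and means carry the SD over the libraries of their group. Library names written wholly in capitals with no separator are called library set 1 here, and the others, spelled in several ways, library set 2, a division made with the pseudogene share known. Set 1 took in all of CAG-GFP Sham, DREADD Sham 1 with DREADD Sham 2, and CAG-GFP Pilo 3 with CAG-GFP Pilo 4, and pseudogenes took at most 0.200% of the counts there. Set 2 took in all of DREADD Pilo and the remaining libraries of CAG-GFP Pilo (1, 2) and DREADD Sham (3, 4), with a pseudogene share from 4.33% to 8.12%. What the sets stand for is not stated. Summed mature granule cell markers (10 genes) ran from 199 to 288 CPM in DREADD Pilo, from 441 to 1253 in CAG-GFP Pilo, from 216 to 862 in DREADD Sham and from 189 to 198 in CAG-GFP Sham, where C1ql2 and Plk5 had no counts. Markers of other cells reached high sums, with 10 oligodendrocyte genes between 402 and 43698 CPM in DREADD Pilo, between 1349 and 37820.0 in CAG-GFP Pilo, between 19003 and 40791 in DREADD Sham and between 595 and 703 in CAG-GFP Sham. The 10 astrocyte genes summed to between 1316 and 3454 CPM in DREADD Pilo, 752 and 6302 in CAG-GFP Pilo, 1911 and 4681 in DREADD Sham, and 27373 and 28798 in CAG-GFP Sham. Microglial markers (8 genes) reached at most 27989 CPM in DREADD Pilo, 9893 CPM in CAG-GFP Pilo, 11113 CPM for DREADD Sham and 3002 CPM in CAG-GFP Sham. DREADD Pilo 3 stood apart with 155584 CPM of 7 choroid plexus and ependymal genes, and the other libraries had at most 13639 CPM. Mitochondrial genes took 2.58% to 25.8% of counts in DREADD Pilo, the highest in DREADD Pilo 3, 2.06% to 13.9% in CAG-GFP Pilo, 2.21% to 4.90% in DREADD Sham and 11.6% to 12.7% in CAG-GFP Sham. CAG-GFP Pilo 4 had counts for 9372 genes and the other libraries for 14512 to 20863, and what these differences do to the results was not tested.

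The 30 release genes summed to 2245, 1724 and 311 CPM in the 3 DREADD Pilo libraries, 3511, 3633, 8445 and 3317 CPM in the 4 CAG-GFP Pilo libraries, 4029.7, 3564, 1632 and 1633 CPM in the 4 DREADD Sham libraries, and 1892, 2324 and 1858 CPM in the 3 CAG-GFP Sham libraries. Every CAG-GFP Pilo library thus lay above every DREADD Pilo and every CAG-GFP Sham library. DREADD Sham split by library set, with the pair of set 1 high and the pair of set 2 below all of CAG-GFP Sham. CAG-GFP Pilo 3 had the highest level of 14 libraries for 13 of the 30 genes and was among the 3 highest for 24. DREADD Pilo 3 had counts for 21 of the 30 genes and a median rank of 13.5 among the 14 libraries, counted from the highest. In sorted pools such as these, fewer cells of a type and less RNA per cell cannot be told apart.

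**Figure D1:**
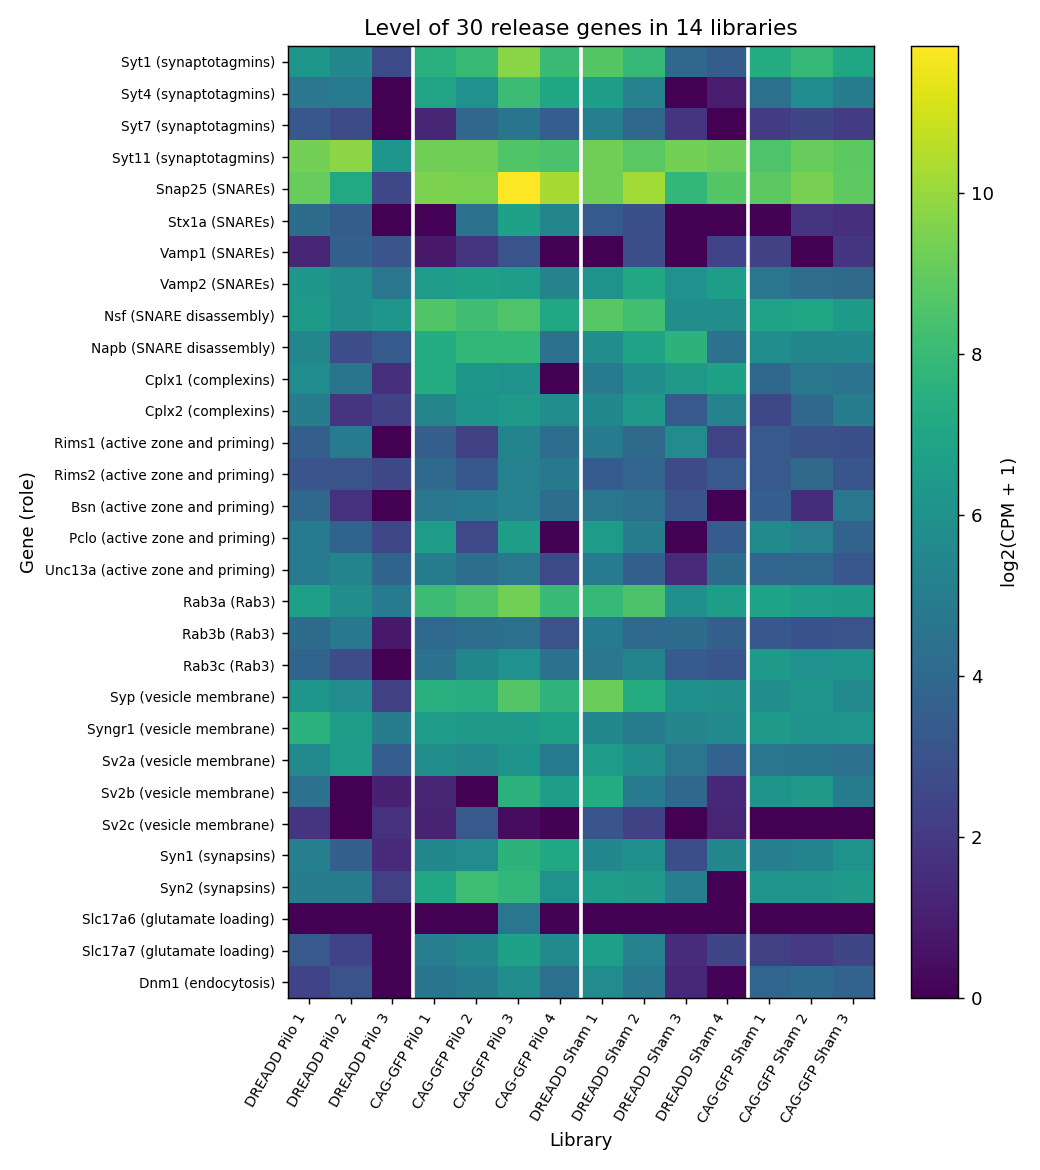
Heat map of the 30 release genes (down the page, grouped by role) in the 14 libraries (across), as log2(CPM + 1). CAG-GFP Pilo 3 is the highest library for 13 genes, and DREADD Pilo 3 has counts for only 21 of the 30.

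The synaptotagmins, calcium sensors and related vesicle proteins, differed from one another in how far their level varied. Syt1, the fast calcium sensor, had 75.7, 42.8 and 5.34 CPM in DREADD Pilo, 176, 246, 839 and 263 CPM in CAG-GFP Pilo, 417, 230.4, 14.9 and 10.1 CPM in DREADD Sham, and 159.8, 235 and 126 CPM in CAG-GFP Sham. All 3 DREADD Pilo libraries were below every CAG-GFP Pilo and every CAG-GFP Sham library, and the DREADD Sham libraries of set 2 were lower than DREADD Pilo 1 and 2. Syt11, an atypical synaptotagmin without calcium binding, had 657, 863 and 73.9 CPM in DREADD Pilo, 623, 621, 391 and 346 CPM in CAG-GFP Pilo, 613, 443, 644 and 564 CPM in DREADD Sham, and 383, 539.7 and 461 CPM in CAG-GFP Sham. Its groups overlapped in every comparison, with DREADD Pilo 3 the one low library. Per kb of exon, mean Syt11 was 102 CPM in DREADD Pilo, 95.1 in CAG-GFP Pilo, 109 CPM in DREADD Sham and 88.7 CPM in CAG-GFP Sham. Mean Syt1 per kb was 4.95 CPM in DREADD Pilo, 45.7 in CAG-GFP Pilo, 20.2 CPM in DREADD Sham and 20.8 CPM in CAG-GFP Sham. Syt4, a synaptotagmin of dense-core vesicles and neurotrophin release, had 24.9, 29.2 and 0 CPM in DREADD Pilo, 118, 62.6, 277 and 126 CPM in CAG-GFP Pilo, 96.2, 37.0, 0 and 0.869 CPM in DREADD Sham, and 19.3, 53.6 and 30.8 CPM in CAG-GFP Sham. The CAG-GFP Pilo libraries exceeded all DREADD Pilo and all CAG-GFP Sham libraries. An antisense gene, Gm26658, shares exon bases with Syt4, and since the strand setting of the counting is not given, reads of the pair cannot be told apart. Syt7, a slow calcium sensor of asynchronous release, was low, with at most 8.24 CPM in DREADD Pilo, 23.2 in CAG-GFP Pilo, 33.3 CPM in DREADD Sham and 4.63 CPM in CAG-GFP Sham.

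Among the SNAREs that drive fusion, Snap25 had the highest mean level per kb, and in CAG-GFP Pilo the highest of the 30 genes. Snap25, a plasma membrane SNARE, had 535, 144 and 4.90 CPM in DREADD Pilo, 724, 693, 3629 and 1231 CPM in CAG-GFP Pilo, 615, 1153, 229.5 and 413 CPM in DREADD Sham, and 462, 664 and 477 CPM in CAG-GFP Sham. CAG-GFP Pilo lay above DREADD Pilo and above CAG-GFP Sham without overlap, although its lowest library was only a little above the highest of CAG-GFP Sham. Mean Snap25 per kb was 33.5 CPM in DREADD Pilo, 231 in CAG-GFP Pilo, 88.7 CPM in DREADD Sham and 78.7 CPM in CAG-GFP Sham. Vamp2, the main vesicle SNARE of the forebrain, had 78.9, 58.8 and 24.7 CPM in DREADD Pilo, 88.4, 107, 99.2 and 38.5 CPM in CAG-GFP Pilo, 63.4, 133, 63.1 and 95.0 CPM in DREADD Sham, and 23.6, 17.5 and 16.2 CPM in CAG-GFP Sham. Each library of the 3 other groups lay above all 3 of CAG-GFP Sham, by a narrow margin in DREADD Pilo 3. Stx1a, the syntaxin partner of Snap25, had 17.1, 10.1 and 0 CPM in DREADD Pilo, 0.0940, 21.1, 108 and 40.2 CPM in CAG-GFP Pilo, 9.15, 6.29, 0 and 0 CPM in DREADD Sham, and 0, 2.42 and 2.04 CPM in CAG-GFP Sham. Its groups overlapped, with the highest values in CAG-GFP Pilo of set 1. Vamp1, a vesicle SNARE of hindbrain and spinal cord, stayed at or below 11.3 CPM in every library.

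Nsf, the ATPase that takes used SNARE bundles apart, had 87.0, 58.8 and 73.6 CPM in DREADD Pilo, 392, 293, 382 and 135 CPM in CAG-GFP Pilo, 425, 301, 56.8 and 56.1 CPM in DREADD Sham, and 112, 121 and 86.0 CPM in CAG-GFP Sham. CAG-GFP Pilo stood above DREADD Pilo and above CAG-GFP Sham in every library, and DREADD Pilo 3 was not low for this gene. Napb, the neuronal SNAP protein that recruits Nsf, had 41.9, 6.01 and 9.24 CPM in DREADD Pilo, 154, 227, 227 and 21.2 CPM in CAG-GFP Pilo, 57.2, 112, 198 and 20.9 CPM in DREADD Sham, and 54.6, 42.3 and 44.6 CPM in CAG-GFP Sham. DREADD Pilo lay below CAG-GFP Sham, and CAG-GFP Pilo 4 fell among the DREADD Pilo values. Cplx2, a complexin of excitatory terminals, had 31.2, 2.52 and 4.01 CPM in DREADD Pilo, 41.3, 69.3, 79.8 and 56.1 CPM in CAG-GFP Pilo, 44.7, 84.2, 8.86 and 38.2 CPM in DREADD Sham, and 4.97, 15.2 and 31.5 CPM in CAG-GFP Sham. CAG-GFP Pilo stood above both DREADD Pilo and CAG-GFP Sham, whereas DREADD Sham overlapped both. Cplx1, its relative, had 52.1, 23.1 and 2.00 CPM in DREADD Pilo, 158, 75.0, 65.1 and 0 CPM in CAG-GFP Pilo, 27.0, 53.8, 79.7 and 108 CPM in DREADD Sham, and 15.2, 25.8 and 21.6 CPM in CAG-GFP Sham. Only DREADD Sham was clear of CAG-GFP Sham for Cplx1.

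The active zone and priming genes never passed the 98.1 CPM that Pclo had in CAG-GFP Pilo 3. Rims1 and Rims2, scaffolds that tether vesicles to calcium channels, stayed at or below 51.6 CPM and 36.0 CPM in any library. Bsn (Bassoon) and Pclo (Piccolo), the giant scaffold proteins, reached at most 15.2 and 29.7 CPM in DREADD Pilo, 37.3 and 98.1 CPM in CAG-GFP Pilo, 24.1 and 88.1 CPM in DREADD Sham, and 24.3 and 48.0 CPM in CAG-GFP Sham. Unc13a (Munc13-1), which opens syntaxin for priming, had 28.9, 39.7 and 13.1 CPM in DREADD Pilo, 31.5, 18.1, 24.8 and 5.30 CPM in CAG-GFP Pilo, 28.003, 11.2, 1.75 and 16.9 CPM in DREADD Sham, and 13.7, 15.2 and 8.22 CPM in CAG-GFP Sham. Its mean was 27.2 ± 13.4 CPM in DREADD Pilo and 19.9 ± 11.2 CPM in CAG-GFP Pilo, and the libraries overlapped. Unc13a shares 495 exon bases with Colgalt1 on the opposite strand, which had 8380 counts in total beside 5830. Part of either count may belong to the other.

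Rab3 proteins are vesicle GTPases that bind Rims scaffolds. Rab3a had 101, 55.6 and 27.4 CPM in DREADD Pilo, 274, 363, 643 and 250.97 CPM in CAG-GFP Pilo, 243, 364, 59.5 and 97.0 CPM in DREADD Sham, and 117, 88.8 and 86.9 CPM in CAG-GFP Sham. The lowest CAG-GFP Pilo library was well above the highest of DREADD Pilo and of CAG-GFP Sham, and DREADD Sham divided by library set. Rab3c went a different way, with 12.9, 5.95 and 0 CPM in DREADD Pilo, 21.0, 41.5, 61.3 and 20.4 CPM in CAG-GFP Pilo, 25.1, 39.0, 9.38 and 7.82 CPM in DREADD Sham, and 83.6, 61.6 and 67.5 CPM in CAG-GFP Sham. All 11 libraries of the other groups lay below all 3 of CAG-GFP Sham, CAG-GFP Pilo 3 by a narrow margin, and DREADD Pilo also lay below CAG-GFP Pilo. Rab3b had 17.3, 26.1 and 0.779 CPM in DREADD Pilo, 15.3, 18.4, 19.5 and 7.19 CPM in CAG-GFP Pilo, 28.5, 15.3, 17.4 and 11.2 CPM in DREADD Sham, and 8.25, 6.80 and 7.54 CPM in CAG-GFP Sham. DREADD Sham was the one group wholly above CAG-GFP Sham.

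Of the vesicle membrane proteins, Syp (synaptophysin, a partner of Vamp2) had 73.5, 50.6 and 3.78 CPM in DREADD Pilo, 170.4, 165, 405 and 203 CPM in CAG-GFP Pilo, 562, 157, 60.1 and 55.7 CPM in DREADD Sham, and 56.5, 69.8 and 49.6 CPM in CAG-GFP Sham. CAG-GFP Pilo was above DREADD Pilo and CAG-GFP Sham in every library, and DREADD Sham 1 was the highest of the 14. Syp shares 875 exon bases with the antisense gene Gm14703, whose total of 30060 counts stands beside 66842 for Syp, so part of either count may belong to the other. Syngr1 (synaptogyrin), a relative of synaptophysin, had 188, 94.5 and 31.5 CPM in DREADD Pilo, 91.9, 81.8, 81.6 and 105 CPM in CAG-GFP Pilo, 43.2, 29.9, 40.7 and 47.6 CPM in DREADD Sham, and 79.5, 66.9 and 71.5 CPM in CAG-GFP Sham. CAG-GFP Pilo exceeded CAG-GFP Sham by a small step, and DREADD Sham lay below both CAG-GFP groups. Sv2a, a vesicle glycoprotein that binds synaptotagmin, had 50.1, 92.2 and 10.46 CPM in DREADD Pilo, 56.5, 47.0, 69.6 and 29.4 CPM in CAG-GFP Pilo, 91.7, 57.9, 23.6 and 12.3 CPM in DREADD Sham, and 24.0, 23.3 and 18.8 CPM in CAG-GFP Sham. Only CAG-GFP Pilo was clear of CAG-GFP Sham. Sv2b, its close relative, had 20.9, 0 and 1.11 CPM in DREADD Pilo, 1.32, 0, 191 and 94.6 CPM in CAG-GFP Pilo, 159, 28.1, 14.7 and 1.56 CPM in DREADD Sham, and 69.2, 80.1 and 31.6 CPM in CAG-GFP Sham. The libraries of set 1 were higher than those of set 2 both within CAG-GFP Pilo and within DREADD Sham. Sv2c, a further relative, had no counts in any CAG-GFP Sham library and 2.58, 0 and 2.23 CPM in DREADD Pilo, 1.22, 8.74, 0.320 and 0 CPM in CAG-GFP Pilo, and 7.66, 4.05, 0 and 1.30 CPM in DREADD Sham. Set against a floor of 3 counts over the CAG-GFP Sham group, which is 0.0504 CPM, mean Sv2c was at least 31.8-fold higher in DREADD Pilo, at least 51.0-fold higher in CAG-GFP Pilo and at least 64.5-fold higher in DREADD Sham. Each bound leans on 1 library and was 22.1 without DREADD Pilo 1, 10.2 without CAG-GFP Pilo 2 and 35.4 without DREADD Sham 1. Each of these groups also had 1 library without Sv2c counts. Within library set 1, which holds all of CAG-GFP Sham, Sv2c had 0.320 and 0 CPM in CAG-GFP Pilo 3 and 4. The 51.0-fold bound thus rests mainly on CAG-GFP Pilo 1 and 2, which are in library set 2. In DREADD Sham the set 1 libraries had 7.66 and 4.05 CPM, and DREADD Pilo has no library in that set.

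Synapsins tie vesicles to actin in the reserve pool. Syn1 had 33.6, 11.2 and 1.78 CPM in DREADD Pilo, 45.5, 50.8, 198 and 137 CPM in CAG-GFP Pilo, 43.7, 60.1, 6.24 and 44.2 CPM in DREADD Sham, and 33.8, 39.8 and 64.6 CPM in CAG-GFP Sham. DREADD Pilo lay below all libraries of both CAG-GFP groups, with DREADD Pilo 1 only just under the lowest of CAG-GFP Sham. Syn2 had 30.3, 30.0 and 3.78 CPM in DREADD Pilo, 131, 286, 227 and 65.2 CPM in CAG-GFP Pilo, 96.4, 81.8, 31.9 and 0 CPM in DREADD Sham, and 70.2, 71.7 and 80.3 CPM in CAG-GFP Sham. DREADD Pilo was again below both CAG-GFP groups. Syn2 shares 90 exon bases with Timp4 on the opposite strand, which had 63319 counts in total beside 29740, so some reads may be misassigned. Slc17a7 (VGLUT1), the glutamate transporter of cortical and hippocampal vesicles, had 8.89, 4.26 and 0 CPM in DREADD Pilo, 32.4, 43.4, 108 and 48.5 CPM in CAG-GFP Pilo, 101, 36.1, 1.81 and 4.52 CPM in DREADD Sham, and 3.73, 2.86 and 4.50 CPM in CAG-GFP Sham. All 4 CAG-GFP Pilo libraries and the DREADD Sham libraries of set 1 stood above every other library. Slc17a6 (VGLUT2), its counterpart in subcortical and many immature neurons, had 975 counts (24.0 CPM) in CAG-GFP Pilo 3 and 0 in the other 13 libraries, where 3 counts would be 0.0560 to 0.334 CPM. Dnm1 (dynamin-1), the GTPase that pinches off retrieved vesicles, had 4.12, 7.27 and 0 CPM in DREADD Pilo, 23.4, 30.4, 54.7 and 19.9 CPM in CAG-GFP Pilo, 50.5, 25.6, 1.57 and 0.0869 CPM in DREADD Sham, and 13.4, 16.8 and 12.8 CPM in CAG-GFP Sham. CAG-GFP Pilo lay above CAG-GFP Sham, and DREADD Pilo lay below both CAG-GFP groups.

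**Figure D2:**
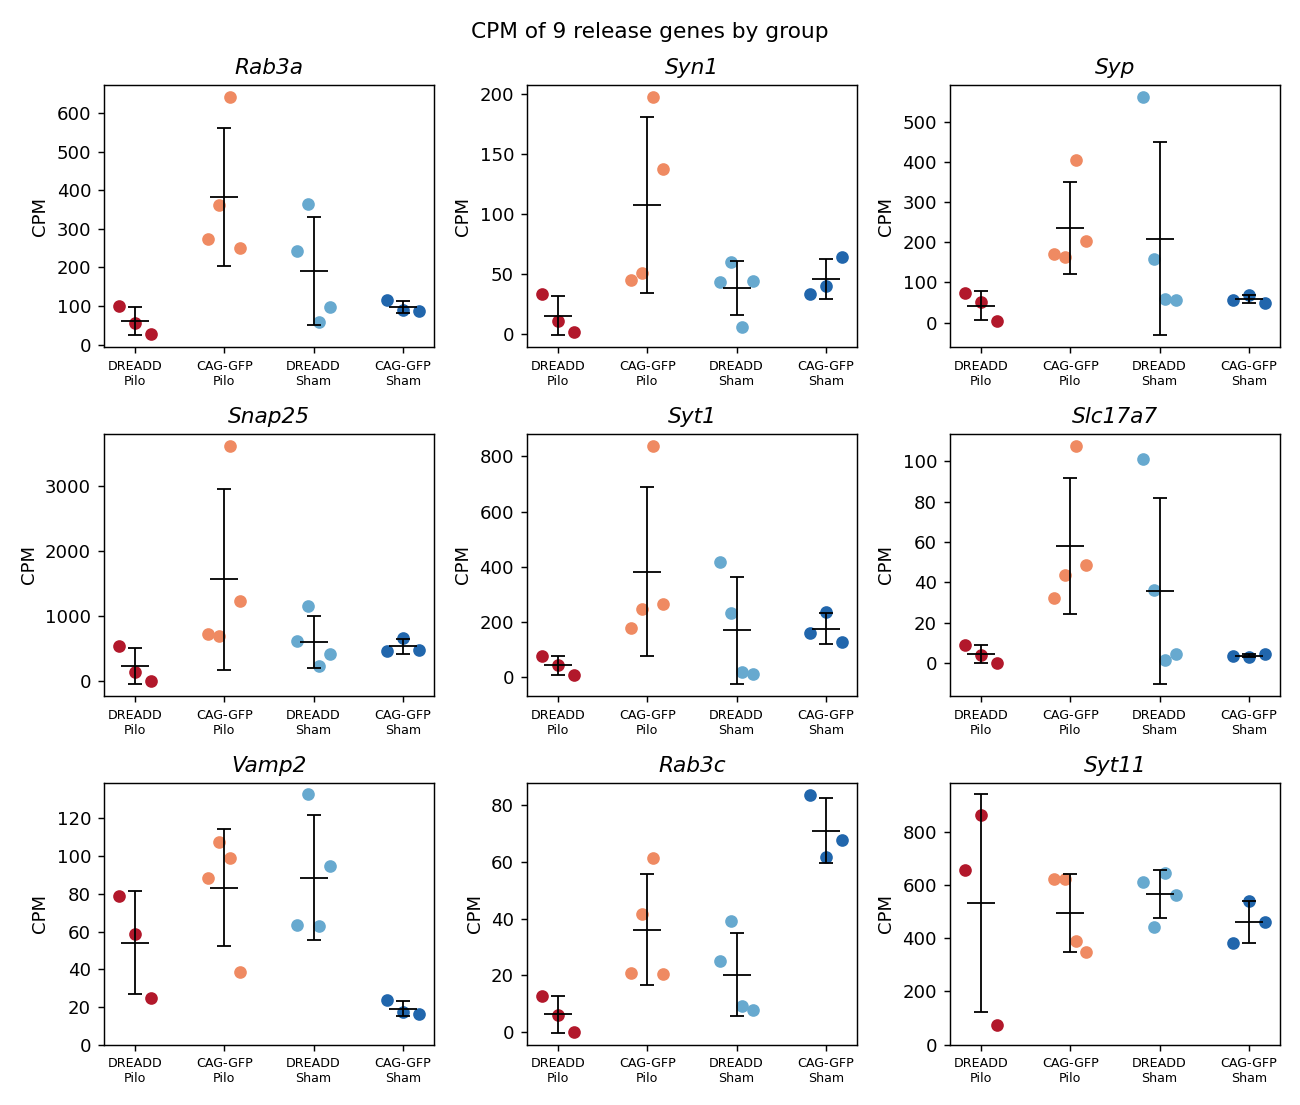
CPM of 9 release genes in each library (points) with the group mean and SD (bars), for DREADD Pilo, CAG-GFP Pilo, DREADD Sham and CAG-GFP Sham from left to right. Rab3a, Syp and Slc17a7 are above DREADD Pilo and CAG-GFP Sham in all 4 CAG-GFP Pilo libraries, Rab3c is highest in CAG-GFP Sham, and Syt11 overlaps between all groups.

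Silencing during seizures is addressed by DREADD Pilo against CAG-GFP Pilo, and no member passed edgeR's test there. Of the 29 members tested, 24 had a negative log2 fold change, against 41.6% negative over all genes tested, and the median was -2.22 against 0.28 over all genes. In 14 of the 29 members each DREADD Pilo library lay below each CAG-GFP Pilo library, which 3.15% of all genes tested did. They were Syt1 and Syt4, Snap25, Nsf, Cplx2, Rims2 and Bsn, Rab3a and Rab3c, Syp, Syn1 and Syn2, Slc17a7 and Dnm1. No member lay above without overlap, as 5.69% of all genes did. In edgeR's quasi-likelihood test at an adjusted p of 0.05, none of the 18676 genes passed either (0%). At an unadjusted p under 0.05, 9 members were lower (3.11% of all genes) and 0 higher (2.25%). DESeq2 called 1 member lower, Rab3a, with an adjusted p of 0.0148, among 0.567% of genes called lower.

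Rab3a averaged 61.2 ± 36.9 CPM over the 3 DREADD Pilo libraries and 383 ± 179.9 CPM over the 4 of CAG-GFP Pilo (± SD). Its log2 fold change was -2.64 ± 0.72 (± SE, as for every fold change here) with an edgeR adjusted p of 0.882, and that p ran from 0.0148 to 1 over the alternatives. The fold change was -3.22 to -2.27 with each library left out in turn. Napb averaged 19.1 ± 19.9 CPM in DREADD Pilo and 157 ± 97.1 CPM in CAG-GFP Pilo (log2 fold change -3.04 ± 0.98), Nsf 73.1 ± 14.1 CPM in DREADD Pilo and 301 ± 119 CPM in CAG-GFP Pilo (-2.04 ± 0.73), and Syn1 15.5 ± 16.3 CPM in DREADD Pilo and 108 ± 73.2 CPM in CAG-GFP Pilo (-2.79 ± 0.997). Their edgeR adjusted p was 0.882 as well. Within library set 2, which holds all of DREADD Pilo and CAG-GFP Pilo 1 and 2, the differences were -2.37 ± 0.63 for Rab3a, -3.31 ± 1.14 for Napb, -2.21 ± 0.44 for Nsf and -1.62 ± 1.24 for Syn1. There the median of the 29 members was -1.62 against 0.26 over all genes, and 17 members lay below without overlap, as 10.2% of all genes did. Without DREADD Pilo 3, the library rich in choroid plexus transcripts, 14 members lay below (5.89% of genes) and the median was -1.68. Without both DREADD Pilo 3 and CAG-GFP Pilo 3 the count was 14 (6.85% of genes) and the median was -1.38. Summed mature granule cell markers were 199 to 288 CPM in DREADD Pilo and 441 to 1253 CPM in CAG-GFP Pilo, and all 10 had counts in either group. Calb1 had the largest mean of them in CAG-GFP Pilo (352 CPM, against 15.2 CPM in DREADD Pilo). Dsp was close (29.5 and 24.1 CPM), and Maml2 alone was higher in DREADD Pilo (11.2 CPM in CAG-GFP Pilo, 33.1 CPM in DREADD Pilo). Neuroblast markers summed to 14.7 to 551 CPM in DREADD Pilo and 559.8 to 1457 CPM in CAG-GFP Pilo. Stmn1 made up most of that sum (mean 178 CPM in DREADD Pilo, 569 CPM in CAG-GFP Pilo), whereas mean Dcx was 40.8 CPM in DREADD Pilo and 31.7 CPM in CAG-GFP Pilo, and Igfbpl1, Eomes and Draxin also had higher means in DREADD Pilo. CA pyramidal neuron markers summed to 34.8 to 54.5 CPM in DREADD Pilo and 67.7 to 282 CPM in CAG-GFP Pilo, with Iyd at 0 in DREADD Pilo. Interneuron markers summed to 3.45 to 61.1 CPM in DREADD Pilo, with Slc32a1, Sst, Vip and Lhx6 at 0, and to 15.6 to 268 CPM in CAG-GFP Pilo, with Lhx6 at 0, so these sums overlapped. Their part in the lower release genes was not tested.

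**Figure D3:**
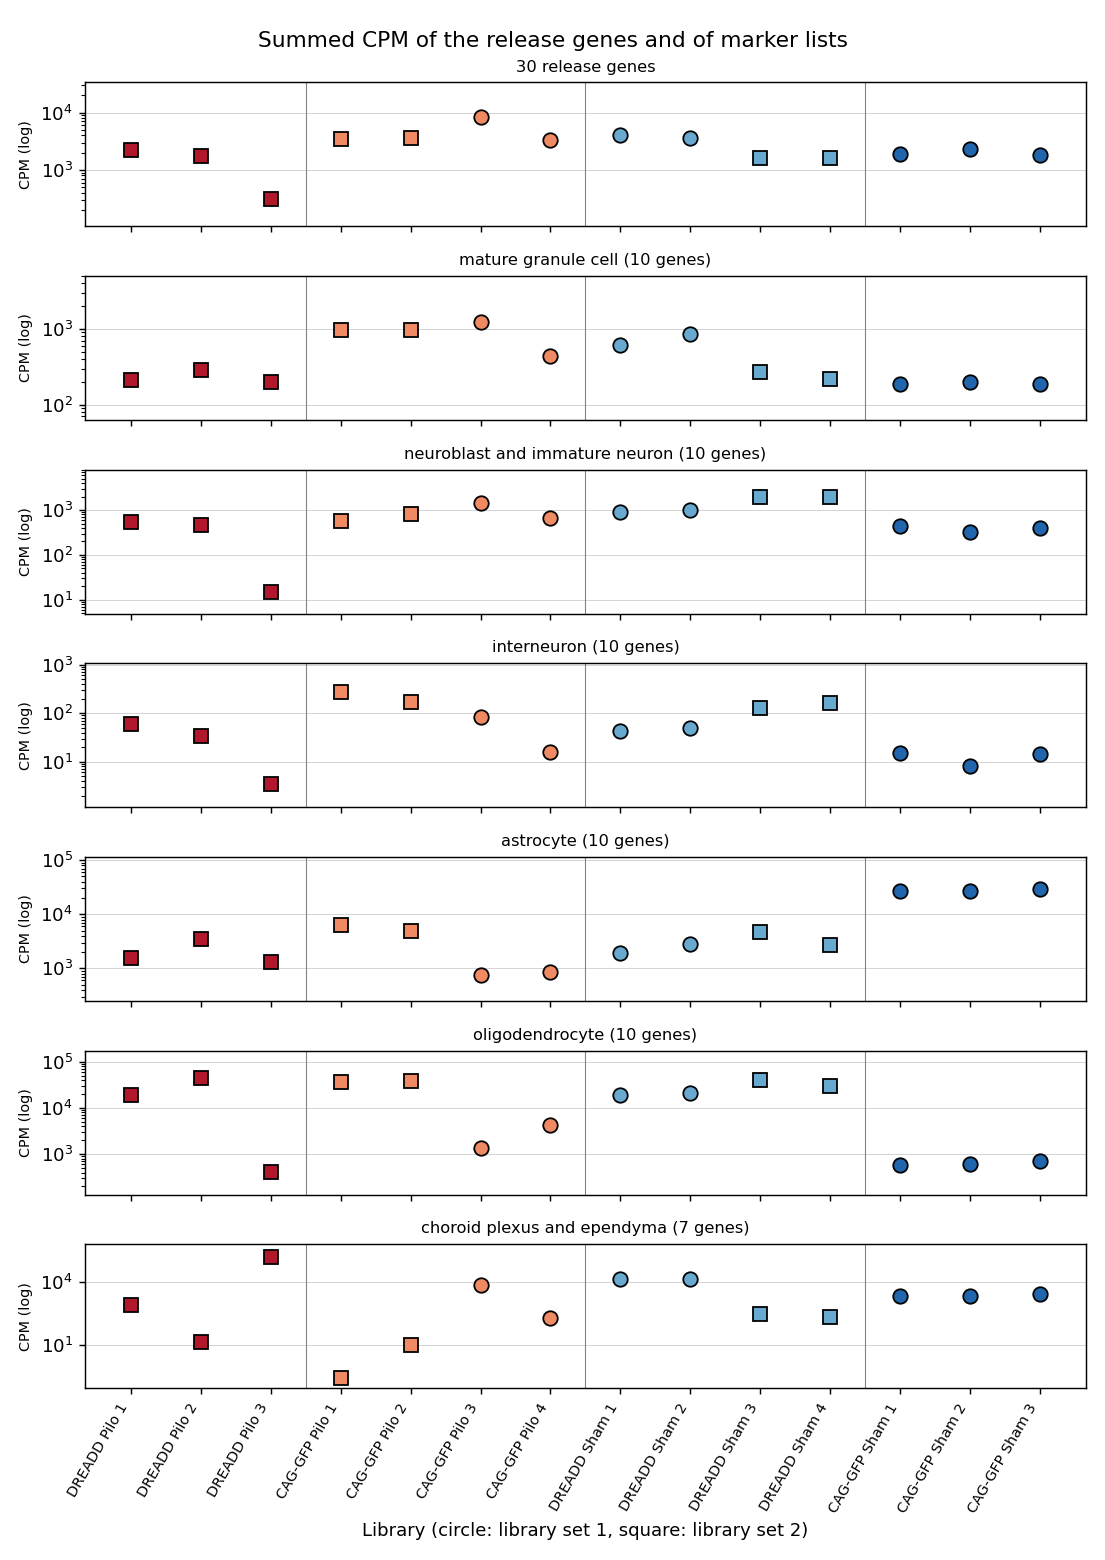
Summed CPM (log axis) of the 30 release genes and of 6 marker lists in each library, with circles for library set 1 and squares for library set 2. Release genes run from 311 to 2245 CPM in DREADD Pilo and from 3317 to 8445 CPM in CAG-GFP Pilo. The sum of the mature granule cell markers is likewise lower in DREADD Pilo, though Maml2 is not.

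The effect of seizures without silencing is addressed by CAG-GFP Pilo against CAG-GFP Sham, where 28 of the 29 members had a positive log2 fold change (58.6% of all genes). The median was 1.26 against 0.41 over all genes. In 11 members every CAG-GFP Pilo library lay above every CAG-GFP Sham library, against 6.55% of all genes. These were Syt4, Snap25, Vamp2, Nsf, Cplx2, Rab3a, Syp, Syngr1, Sv2a, Slc17a7 and Dnm1. Rab3c was the 1 member wholly below, as 12.2% of all genes were. The edgeR test called 0 members and 0.241% of all genes. At an unadjusted p under 0.05, 4 members were higher (10.3% of genes), namely Vamp2, Rab3a, Sv2c and Slc17a7, and 0 lower (5.04%). DESeq2 called the same 4 higher, and 10% of all genes tested.

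Vamp2 averaged 83.4 ± 30.9 CPM over the 4 CAG-GFP Pilo libraries and 19.1 ± 3.996 CPM over the 3 of CAG-GFP Sham, and its log2 fold change was 2.13 ± 0.61 with an edgeR adjusted p of 0.224 and a DESeq2 adjusted p of 0.00101. Rab3a averaged 383 ± 179.9 CPM in CAG-GFP Pilo and 97.5 ± 16.7 CPM in CAG-GFP Sham, a log2 fold change of 1.97 ± 0.70 with an edgeR adjusted p of 0.285 and a DESeq2 adjusted p of 0.0222. Slc17a7 averaged 58.0 ± 33.8 CPM in CAG-GFP Pilo and 3.70 ± 0.821 CPM in CAG-GFP Sham, a log2 fold change of 3.97 ± 1.56 with an edgeR adjusted p of 0.288 and a DESeq2 adjusted p of 0.018. Over the alternatives the adjusted p ran from 0.00101 to 0.583 for Vamp2, from 0.0222 to 0.583 for Rab3a and from 0.018 to 0.583 for Slc17a7. The log2 fold change was 2.01 ± 0.95 for Syp (edgeR adjusted p 0.327), 1.497 ± 0.72 for Nsf (0.329), 1.74 ± 0.92 for Napb (0.361) and 1.84 ± 0.995 for Cplx2 (0.366). Cplx2 was 2.62 without CAG-GFP Sham 3 and 1.40 without CAG-GFP Sham 1. Within library set 1, which leaves CAG-GFP Pilo 3 and 4 against CAG-GFP Sham, edgeR called 3 members higher, Snap25, Rab3a and Slc17a7, and 0.579% of all genes higher (2.73% in either direction). There Snap25 was 2.13 ± 0.45 (edgeR adjusted p 0.0494), against 1.55 ± 1.04 over all libraries (0.468) and 0.72 without CAG-GFP Pilo 3, and its adjusted p reached 0.763 over the alternatives. Within that set Rab3a was 2.15 ± 0.41 (edgeR adjusted p 0.0363) and Slc17a7 4.35 ± 0.74 (0.023), the median of the members was 1.33 against -0.07 over all genes, and 18 lay above without overlap (13.9% of genes) and 1 below (18.7%). Without CAG-GFP Pilo 4 the count above was 17 (14.3% of genes), and without CAG-GFP Pilo 3 it was 11 (8.26%) with a median of 0.96. Mature granule cell markers summed to 441 to 1253 CPM in CAG-GFP Pilo and 189 to 198 CPM in CAG-GFP Sham, neuroblast markers to 559.8 to 1457 CPM in CAG-GFP Pilo and 322 to 438 CPM in CAG-GFP Sham, and astrocyte markers to 752 to 6302 CPM in CAG-GFP Pilo and 27373 to 28798 CPM in CAG-GFP Sham. Their part in the higher release genes was not tested.

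DREADD Pilo against DREADD Sham sets seizures against none in cells with the receptor. Its median was negative over all libraries but near that of all genes within library set 2, the only set with DREADD Pilo. Over all libraries 24 of the 29 members had a negative log2 fold change (47.5% of genes) and the median was -1.30 against 0.07 over all genes, and it was -0.83 without DREADD Sham 1 and -0.84 without DREADD Pilo 3. No member was separated without overlap, against 4.39% of genes above and 2.23% below. No member passed edgeR's test, nor did any gene (0%), and DESeq2 called 0 members (0.888% of genes), with 6 at an unadjusted p under 0.05 (7.13% of genes). At an unadjusted edgeR p under 0.05, Napb, Rab3a and Syp were lower (3 members, 1.83% of genes) and Syngr1 was higher (1 member, 3.35%). Napb averaged 19.1 ± 19.9 CPM in DREADD Pilo and 97.0 ± 77.2 CPM in DREADD Sham, a log2 fold change of -2.35 ± 0.95. Rab3a averaged 61.2 ± 36.9 CPM in DREADD Pilo and 191 ± 140.0 CPM in DREADD Sham (-1.64 ± 0.69), and Syp 42.6 ± 35.6 CPM in DREADD Pilo and 209 ± 239.8 CPM in DREADD Sham (-2.29 ± 0.96). Syngr1 averaged 105 ± 78.5 CPM in DREADD Pilo and 40.4 ± 7.53 CPM in DREADD Sham (1.37 ± 0.55). All of these had an edgeR adjusted p of 0.954. Within library set 2, with DREADD Sham 3 and 4 only, the median turned to 0.37 (0.20 over all genes) and 16 members were positive. Napb was -2.53 ± 1.11 there, but Rab3a was -0.36 ± 0.63 and Syp -0.45 ± 0.99. Syp was -1.09 without DREADD Sham 1 and Syngr1 was 0.62 without DREADD Pilo 1. Without DREADD Pilo 1, 9 members lay below without overlap (4.69% of genes) and 1 above (8.19%), and without DREADD Pilo 3, 4 lay above (9.71%). Leaving out DREADD Sham 1, 3 or 4 gave 1 (3.52%), 3 (5.16%) or 2 (4.16%) below. Mature granule cell markers summed to 199 to 288 CPM in DREADD Pilo and 216 to 862 CPM in DREADD Sham. Of these, Dsp and Maml2 had higher means in DREADD Pilo (24.1 and 33.1 CPM) than in DREADD Sham (11.5 and 11.7 CPM). Neuroblast markers summed to 14.7 to 551 CPM in DREADD Pilo and 908 to 2011 CPM in DREADD Sham. Only Eomes had a higher mean in DREADD Pilo there. CA pyramidal neuron markers summed to 34.8 to 54.5 CPM in DREADD Pilo and 89.0 to 172 CPM in DREADD Sham, though mean Wfs1 was higher in DREADD Pilo. Interneuron sums overlapped. The part of these markers was not tested.

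DREADD Sham against CAG-GFP Sham sets the receptor group against the GFP group, both with CNO and without seizures. Here 21 of the 29 members had a positive log2 fold change (61.1% of genes), and their median was 0.44 against 0.53 over all genes. That median was 0.66 without DREADD Sham 3, 0.85 without DREADD Sham 4, 0.80 without CAG-GFP Sham 1 and 0.85 without CAG-GFP Sham 3. Vamp2, Cplx1 and Rab3b were above without overlap (3 members, 9.01% of genes), and Rab3c and Syngr1 below (2 members, 12.7%). The number above was 6 without DREADD Sham 3 (12.8% of genes) and 5 without DREADD Sham 4 (11.3%). The edgeR test called 0 members (0.3% of all genes), with 3 higher (12% of genes) and 0 lower (6.59%) at an unadjusted p under 0.05, and DESeq2 called 2, Vamp2 and Sv2c, with 11.5% of genes called higher. Vamp2 averaged 88.7 ± 33.2 CPM in DREADD Sham and 19.1 ± 3.996 CPM in CAG-GFP Sham, and its log2 fold change was 2.22 ± 0.61 with an edgeR adjusted p of 0.143 (0.000375 to 0.463 over the alternatives). Slc17a7 (35.9 ± 46.1 CPM in DREADD Sham, 3.70 ± 0.821 in CAG-GFP Sham) had 3.28 ± 1.51 with an adjusted p of 0.265, and 1.94 without DREADD Sham 1. Syp (209 ± 239.8 CPM in DREADD Sham, 58.6 ± 10.3 in CAG-GFP Sham) had 1.83 ± 0.94 with an adjusted p of 0.301, and 0.64 without DREADD Sham 1. Within library set 1, DREADD Sham 1 and 2 against CAG-GFP Sham, 27 of the 29 were positive with a median of 0.92 against 0.22 over all genes, and 16 lay above without overlap (22.1% of genes). There edgeR called 2 members, Slc17a7 at 4.19 ± 0.74 (adjusted p 0.0223) and Syp at 2.59 ± 0.53 (0.043), with 0.632% of all genes called higher and 3.07% in either direction. Over all alternatives the adjusted p ran from 0.0223 to 0.583 for Slc17a7 and from 0.043 to 0.775 for Syp. Mature granule cell markers summed to 216 to 862 CPM in DREADD Sham and 189 to 198 CPM in CAG-GFP Sham. Of these only Rasgrp1 had a lower mean in DREADD Sham (34.8 CPM, against 74.5 CPM in CAG-GFP Sham). Neuroblast markers summed to 908 to 2011 CPM in DREADD Sham and 322 to 438 CPM in CAG-GFP Sham. The part of these markers was not tested.

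DREADD Pilo against CAG-GFP Sham split the members, with 16 of 29 negative (36% of genes) and a median of -0.46 against 0.66 over all genes. It was -0.86 without DREADD Pilo 1, and -0.09 without either DREADD Pilo 3 or CAG-GFP Sham 3. Below without overlap were 8 members, Syt1, Napb, Rims2, Rab3c, Sv2b, Syn1, Syn2 and Dnm1 (14.9% of genes), and above was 1, Vamp2 (19.8%). With RLE factors 5 lay below (13.4% of genes) and 2 above (22%), and without DREADD Pilo 3, 9 lay above (32.9%). Without DREADD Pilo 1 or without DREADD Pilo 2 it was 2 (24.1% and 25.3%). With edgeR 0 members passed (0.225% of genes), 2 were higher (12.7%) and 1 lower (6.45%) at an unadjusted p under 0.05, and DESeq2 called Vamp2 higher and Rab3c lower (2 members, 15.6% of genes in either direction). Rab3c averaged 6.29 ± 6.46 CPM in DREADD Pilo and 70.9 ± 11.4 CPM in CAG-GFP Sham, with a log2 fold change of -3.49 ± 1.31 (edgeR adjusted p 0.207). Vamp2 averaged 54.1 ± 27.4 CPM in DREADD Pilo and 19.1 ± 3.996 CPM in CAG-GFP Sham (1.504 ± 0.62, adjusted p 0.231), and Syt1 41.3 ± 35.2 CPM in DREADD Pilo and 174 ± 56.0 CPM in CAG-GFP Sham (-2.07 ± 1.21, adjusted p 0.362). All of DREADD Pilo is in library set 2 and all of CAG-GFP Sham in set 1, so the set and the group cannot be told apart. A fit with the set as a covariate takes the set difference from CAG-GFP Pilo and DREADD Sham, which span both sets. It assumes that the same difference holds in DREADD Pilo and CAG-GFP Sham, which was not tested. In that fit the median turned to 0.97 and Syt1, which was that median, to 0.97 ± 1.25. Astrocyte markers summed to 1316 to 3454 CPM in DREADD Pilo and 27373 to 28798 CPM in CAG-GFP Sham, and their part was not tested.

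**Figure D4:**
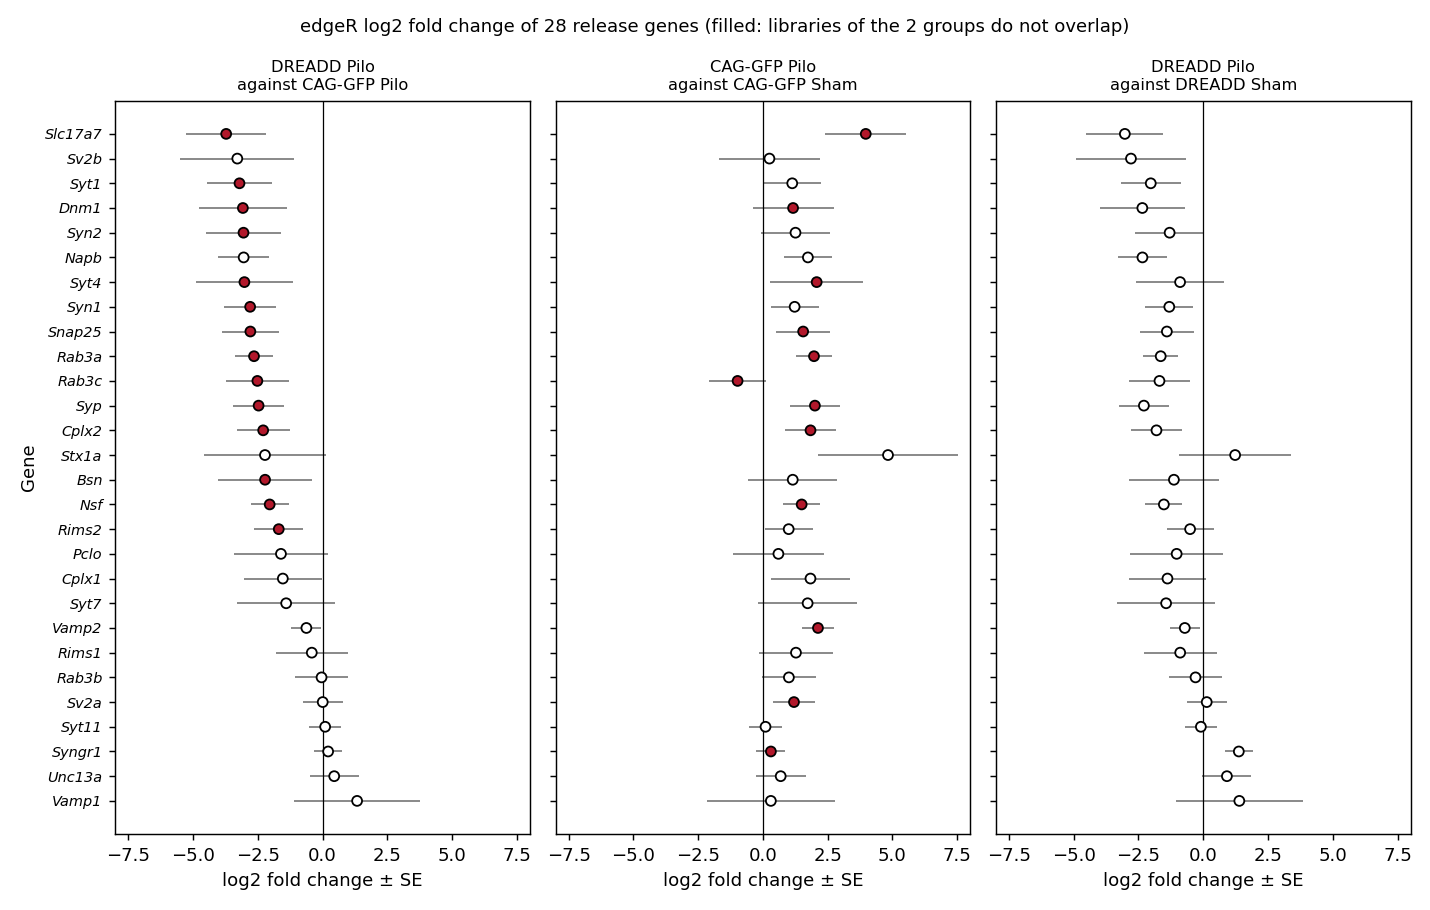
The edgeR log2 fold change (horizontal axis) of 28 tested release genes (down the page, without Sv2c) in 3 comparisons, with its SE as a bar and filled points where libraries do not overlap. In DREADD Pilo against CAG-GFP Pilo 23 genes are below 0 (41.6% of all genes tested). In CAG-GFP Pilo against CAG-GFP Sham 27 are above 0 (58.6%).

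Whether the seizure difference itself differed between receptor and GFP groups was tested as an interaction, the DREADD difference (Pilo minus Sham) minus the CAG-GFP difference. It was negative for 26 of the 29 members (57.2% of genes), with a median of -2.96 against -0.43 over all genes. No member and no gene passed edgeR's test (0%). With an unadjusted edgeR p under 0.05, 8 members were lower (7.4% of genes) and 0 higher (4.33%). DESeq2 called 6 lower, Vamp2, Nsf, Napb, Rab3a, Syp and Slc17a7 (6.62% of genes lower and 8.33% in either direction). Rab3a had -3.61 ± 0.98 (edgeR adjusted p 0.288, DESeq2 adjusted p 0.00259) and Vamp2 -2.84 ± 0.84 (0.334 and 0.00423). Slc17a7 had -7.00 ± 2.15 (0.356 and 0.00251) and Syp -4.30 ± 1.35 (0.369 and 0.0166). Napb had -4.08 ± 1.32 (0.375 and 0.0244) and Nsf -3.02 ± 1.01 (0.377 and 0.0429). The highest adjusted p over the alternatives was 0.793 for each of the 6, and the DESeq2 value was the lowest. No library set holds all 4 groups, so the interaction has no value within one. With the set as a covariate the median was -2.07, and without CAG-GFP Pilo 3 and DREADD Pilo 3 it was -1.87.

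A wider list of 53 further genes of release, among them synaptoporin (Synpr), was read beside the 30. Of these 50 passed the filter, and Rims4, Slc17a8 and Slc32a1 did not. The edgeR test called none of the 50 in any comparison, and DESeq2 called 8 in CAG-GFP Pilo against CAG-GFP Sham (12.9% of all genes), 4 in DREADD Sham against CAG-GFP Sham (15.2%), 2 in DREADD Pilo against CAG-GFP Sham (15.6%) and 10 in the interaction (8.33%). It called 0 in DREADD Pilo against CAG-GFP Pilo (0.961%) and in DREADD Pilo against DREADD Sham (0.888%). In DREADD Pilo against CAG-GFP Pilo 36 of the 50 were negative (41.6% of all genes), with a median of -0.83 against 0.28 over all genes. There 10 lay below without overlap (3.15% of all genes) and 1 above (5.69%), and 7 were lower (3.11%) and 1 higher (2.25%) at an unadjusted edgeR p under 0.05. In CAG-GFP Pilo against CAG-GFP Sham 45 of the 50 were positive (58.6% of all genes), with a median of 1.37 against 0.41 over all genes. Of the 50, 12 lay above without overlap (6.55% of all genes) and 2 below (12.2%), and 8 were higher (10.3%) and 1 lower (5.04%) at an unadjusted p under 0.05. Synpr, a vesicle protein of mossy fibre terminals, had the smallest p of the 50 in that comparison, with a mean of 814 CPM in CAG-GFP Pilo and 8.11 CPM in CAG-GFP Sham (log2 fold change 6.65 ± 1.69, edgeR adjusted p 0.152). Its mean was 124.7 CPM in DREADD Pilo and 349.7 CPM in DREADD Sham.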

How the data were processed

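Gene counts came from 14 libraries of sorted cells in 4 groups taken from their titles. The table deposited by the authors holds raw counts per gene, whole numbers without normalisation. Bowtie2, featureCounts, Subread, edgeR and R 4.1.1 are listed in the submitters' processing notes, with the build hg38, which does not match the mouse identifiers of the table. For annotation release, strand setting and multiply matching reads the sources used here give nothing. Symbols and positions came from GENCODE M21 (GRCm38) for 42462 of 43346 identifiers (98.0%).

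The test was edgeR 4.0.16 under R 4.3.3 (TMM factors, filterByExpr, quasi-likelihood F-test, 1 fit of the 14 libraries) with Benjamini-Hochberg adjustment over 18676 genes and a threshold of 0.05. The SE of a log2 fold change was derived from the F statistic. Fold changes against a group without counts are bounds from 3 counts over that group, which cover counting error only, since reads carry no molecular identifiers. Total counts were 10613291 to 38614639, and no pair of replicates agreed within sampling noise. The script was tested on simulated counts. The members and lists were chosen with earlier results of these data known. Fold changes are given for the 8 members with the smallest p in CAG-GFP Pilo against CAG-GFP Sham, for 4 in each other comparison, and for the members called under an alternative, apart from Sv2c against a group without counts. Of the further release genes those past the test were to be named, and Synpr was chosen after its values were seen. Results of some further release genes are not reported here. Alternatives were DESeq2 1.42.0, RLE factors, no filter, each library left out, either library set alone, the set as a covariate and a replicate block.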

Additional observations from a re-analysis of the deposited data

Results flagged for a closer look

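In 60 groups of 4 libraries, a member's level on the log2(CPM + 1) scale was searched for a library far from the others, where the gap to the nearest library over the whole range had to pass Dixon's critical value. That found 3, and chance gives about 1 in 20. Napb, the SNAP partner of Nsf, had 21.2 CPM in CAG-GFP Pilo 4, where the nearest of the other libraries had 154 CPM (ratio 0.832). Syn1 had 6.24 CPM in DREADD Sham 3, where the nearest had 43.7 CPM (ratio 0.854). Slc17a6 had 24.0 CPM in CAG-GFP Pilo 3 and 0 in the others (ratio 1). With 0 in all the others the ratio is 1 for any level above 0, so the rate of 1 in 20 does not apply to it.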

How the results depend on the processing

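No release gene passed edgeR's test with RLE factors, without the filter, with the library set as a covariate or with any library left out, and every median kept its sign except under 2 settings. With the library set as a covariate, the median in DREADD Pilo against CAG-GFP Sham turned to 0.97, as did Syt1 at 0.97, and in CAG-GFP Pilo against CAG-GFP Sham it was 1.91. Within library set 2 the median in DREADD Pilo against DREADD Sham turned to 0.37, with 1 member above (13.9% of genes) and 1 below (10.2%) without overlap. DESeq2 called 4 members in CAG-GFP Pilo against CAG-GFP Sham, 2 in DREADD Sham against CAG-GFP Sham, 2 in DREADD Pilo against CAG-GFP Sham, 1 in DREADD Pilo against CAG-GFP Pilo and 6 in the interaction, and of the further genes 8, 4, 2, 0 and 10, beside shares of 12.9%, 15.2%, 15.6%, 0.961% and 8.33% of all genes. Within library set 1 edgeR called 3 members and 5 further genes in CAG-GFP Pilo against CAG-GFP Sham (2.73% of genes). There 18 members lay above without overlap (13.9%). It called 2 and 4 in DREADD Sham against CAG-GFP Sham (3.07%), with 16 above (22.1%). RLE factors gave 2 above (22% of genes) and 5 below (13.4%) in DREADD Pilo against CAG-GFP Sham. With each library left out, members above without overlap were 1 to 9 in that comparison (32.9% of genes at the highest count). They were 0 to 1 in DREADD Pilo against CAG-GFP Pilo (9.79% without DREADD Pilo 1). In DREADD Pilo against DREADD Sham 0 to 4 lay above (9.71% at the highest count) and 0 to 9 below (4.69%). The number above was 11 to 17 in CAG-GFP Pilo against CAG-GFP Sham (14.3% at the highest count). It was 3 to 6 in DREADD Sham against CAG-GFP Sham (12.8%). Leaving out CAG-GFP Pilo 3 and DREADD Pilo 3 together, a setting chosen after seeing the data, gave 9 above in DREADD Pilo against CAG-GFP Sham (32.9% of genes), 1 above in DREADD Pilo against CAG-GFP Pilo (18.9%), 4 above in DREADD Pilo against DREADD Sham (9.71%) and an interaction median of -1.87. It also gave 1 further gene (Synpr) called in CAG-GFP Pilo against CAG-GFP Sham. The share of all genes called there is not given here, so that call has no background to be read against. The cause of these shifts was not tested. Replicate numbers did not pair the libraries (correlations of deviations -0.10 to 0.14); with them as a replicate block the median in CAG-GFP Pilo against CAG-GFP Sham was 1.85 and no count of calls moved.

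Each group has 3 or 4 libraries. Their makeup was unlike within DREADD Pilo, CAG-GFP Pilo and DREADD Sham. Those of CAG-GFP Sham were alike (correlation of log2 CPM 0.910 to 0.915 between pairs). Whether spread or depth limits the tests was not compared. DREADD Pilo shares no library set with CAG-GFP Sham. Slc17a6 rests on a single library.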
